A study of Mus musculus with 18 samples.

Results

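The JAK kinases and the STAT transcription factors are the core of cytokine signalling, and their transcripts were followed in mouse blood progenitor lines that were moved into interleukin 3 (IL-3). The 9 genes described are the kinases Jak1, Jak2, Jak3 and Tyk2 and the factors Stat2, Stat3, Stat5a, Stat5b and Stat6. They were taken by symbol from the 23329 genes of the deposited count files. RNA came from FDH cells, immortalised fetal liver cells of BALB/c embryos of stage E14.5, used at passages 10 to 12. All cells, controls included, came from mice lacking the shared signalling subunit βc and its mouse relative βIL-3, and had been transduced with βc. The P248L line also carried IL3Rα, the IL-3-binding subunit, with the change P248L, which the series title names the Site 4 mutant, and the WT line carried wild-type IL3Rα. Cells of each line were sampled after 2 or 5 days in medium with 100 ng/ml IL-3, or untreated, in medium with doxycycline and 100 ng/ml SCF (stem cell factor). This gave 6 groups of 3 libraries, 18 in all, each from 1000000 cells. The IL-3 medium is described without doxycycline and SCF, so each response covers the gain of IL-3 and the loss of both. With 1 line for each receptor, the effect of the receptor and that of the line cannot be told apart.

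JAKs are tyrosine kinases that sit on the inner part of cytokine receptors. When a cytokine joins the receptor chains, the JAKs phosphorylate each other and the receptor, STATs dock there and are phosphorylated, and STAT dimers then enter the nucleus and bind promoters and enhancers. IL-3 acts through the βc subunit, which binds Jak2, and its best known effectors are Stat5a and Stat5b, which are tied to growth and survival of blood progenitors. The same molecules serve other cytokines, so the amount of each JAK and STAT transcript bears on how a cell is equipped for IL-3, interferons, IL-4 or IL-6 type signals. Transcript levels do not measure kinase activity or STAT phosphorylation.

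The libraries held 13844612 to 27181962 reads assigned to genes. Within every group each pair of libraries was further apart than counting error alone gives, most of all P248L untreated library 1 and P248L day 2 library 3 against the others of their groups. Whether the replicates come from separate cultures is not stated, and the p-values below therefore cover only the spread between these libraries, which may be technical. Markers of blood cells were present throughout, with summed levels of 1966 to 7504 CPM (counts per 1000000 reads, with library sizes scaled by TMM, the trimmed mean of M-values) over the 4 analysed, while 5 stromal and endothelial markers summed to at most 6.43 CPM and 5 lymphoid markers to at most 3.84 CPM. Hepatocyte markers (5 genes) summed to 13.3 to 14.3 CPM at WT day 2, where 1 had a mean over 1 CPM, and to 0.80 to 1.18 CPM at P248L day 2. In the other groups they summed to at most 4.08 CPM. Cell type markers moved with time in IL-3. Progenitor markers (7 genes) summed to 218 to 269.8 CPM at P248L day 5, against 2258 to 2642 CPM in P248L untreated libraries, and to 126 to 162 CPM at WT day 5, against 2094 to 2242 CPM in WT untreated libraries. Neutrophil markers (5 genes) summed to 67.8 to 134.6 CPM at P248L day 2 and 26027 to 38485 CPM at P248L day 5, against 1.47 to 4.79 CPM in P248L untreated libraries. In WT cells they were higher at day 2, with 14337 to 17994.5 CPM, than at day 5, with 7733 to 13236 CPM, against 62.0 to 96.5 CPM untreated. Monocyte and macrophage markers (the 4 analysed) reached 14135 to 19480.1 CPM at P248L day 5 and 32788 to 41026 CPM at WT day 5. Mast cell and basophil markers (5 genes) summed to 37.3 to 60.1 CPM at P248L day 5, against 592 to 665 CPM in P248L untreated libraries. In WT cells their sum was 2067 to 3058 CPM at day 5, against 589 to 769 CPM untreated. These 5 genes did not all rise with the sum. At WT day 5, 1 of them had no reads in any library and 3 had means over 1 CPM, while each had reads in WT untreated cells. In bulk RNA, fewer cells of a type and less RNA per cell cannot be told apart, and the part of these marker changes in the results below was not tested.

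All 9 members passed the filter on low counts, with 92 reads (Jak3) to 12204 reads (Jak1) in a library. On GRCm38, Jak1 is on chromosome 4, 101151974 to 101265282, Jak2 on chromosome 19, 29251803 to 29313095, Jak3 on chromosome 8, 71676383 to 71690577 and Tyk2 on chromosome 9, 21104068 to 21131393. Stat6 (chromosome 10, 127642955 to 127660987) and Stat2 (chromosome 10, 128270498 to 128292853) lie 609.5 kb apart. The other STATs form a cluster on chromosome 11, with Stat5b at 100780731 to 100859004, Stat5a at 100859351 to 100885169 and Stat3 at 100886806 to 100939594. Stat5b and Stat5a are separated by 346 bases and point away from each other, and Stat5a and Stat3 are 1636 bases apart. Stat5a and Stat5b are near-identical copies, so reads that fit both are not assigned to either or may be misassigned, and the values of each are uncertain. Jak1, Jak3, Stat2 and Stat6 overlap other annotated protein-coding genes (Raver2, Insl3, Apof and Nab2). Reads on the strand opposite a member came to at most 2.70% of its reads in any library (Stat2). For Stat6 the deposited counts of both strands were 0.92 times those of its own strand, and its day 5 responses from those counts were 1.85 in P248L and 2.05 in WT cells on the log2 scale.

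The 9 genes did not move as a block. At day 2 Jak3, Stat2, Stat5a and Stat5b were lower than in untreated cells of both lines and Jak2 was higher in both. By day 5 Jak1, Jak2, Tyk2, Stat2, Stat3 and Stat6 were higher in both. With no scaling beyond library size Stat3 turned to slightly lower at day 5, and the WT day 5 rise of Jak2 did not pass. Calls of a change rest on edgeR's quasi-likelihood test across 11942 genes, with a Benjamini-Hochberg adjusted p under 0.05. At P248L day 2, 1 member rose and 5 fell, while 39.9% of all genes were called (18.5% up, 21.4% down). At WT day 2, 2 rose and 4 fell, with 43.7% of all genes called (22.0% up, 21.7% down). At P248L day 5, 8 rose and 1 fell, with 71.0% of all genes called (34.8% up, 36.2% down). At WT day 5, 6 rose and 1 fell, with 73.0% of all genes called (35.7% up, 37.3% down). From day 2 to day 5, 8 members rose and 1 fell in P248L cells, with 70.1% of all genes called (37.1% up, 33.0% down), and 7 rose in WT cells, with 70.6% called (36.0% up, 34.6% down). Since most genes changed by day 5, a member's call at that time does not set it apart. The members' calls were mostly upward, while those of all genes were split between both directions. The members were chosen with earlier results of these data known, so this is a description. Among the rises at P248L day 5, those of Stat3 and Stat5b were near the threshold. The median log2 fold change of the members was 1.28 at P248L day 5 and 0.91 at WT day 5, against -0.02 and -0.05 over all genes tested in the same comparisons. With no scaling beyond library size the median of all genes at WT day 5 moved to -0.49 and that at P248L day 5 to -0.25, and changes are given relative to TMM scaling. In a fit of only the 6 P248L libraries compared at day 2, 1 member (Jak2) passed.

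**Figure D1:**
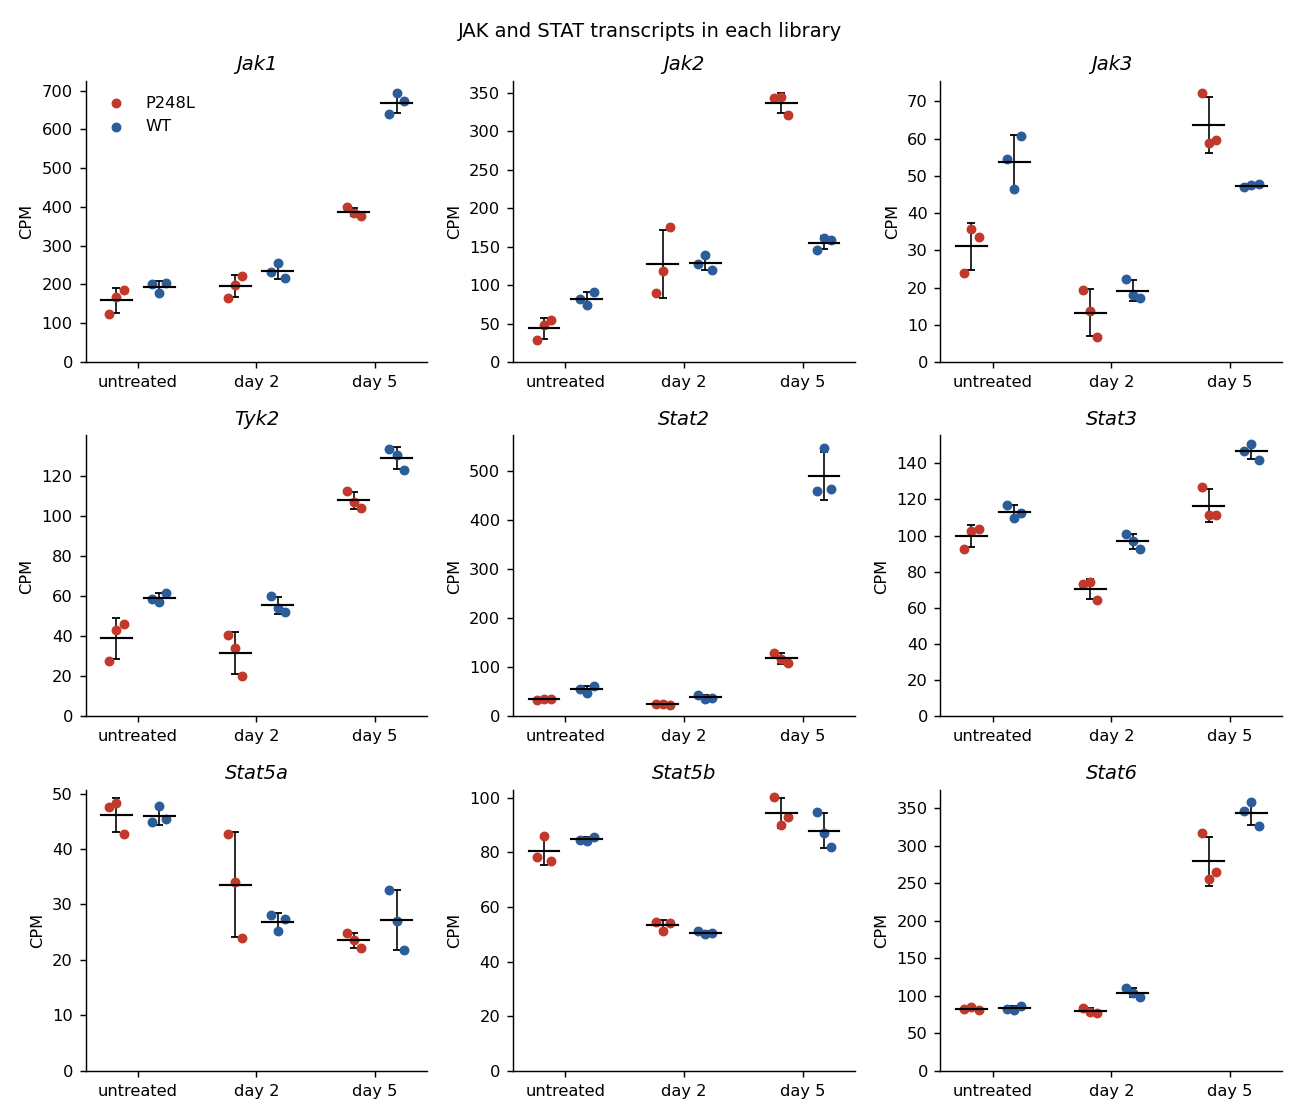
Level of each of the 9 genes in each library (points, CPM on a linear axis from 0), with the mean (black line) and SD (error bar) of the 3 libraries, for P248L (red) and WT (blue) cells untreated and after 2 and 5 days in IL-3. Jak2 was highest in P248L day 5 libraries, and Stat2, Jak1 and Stat6 were highest in WT day 5 libraries.

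**Figure D2:**
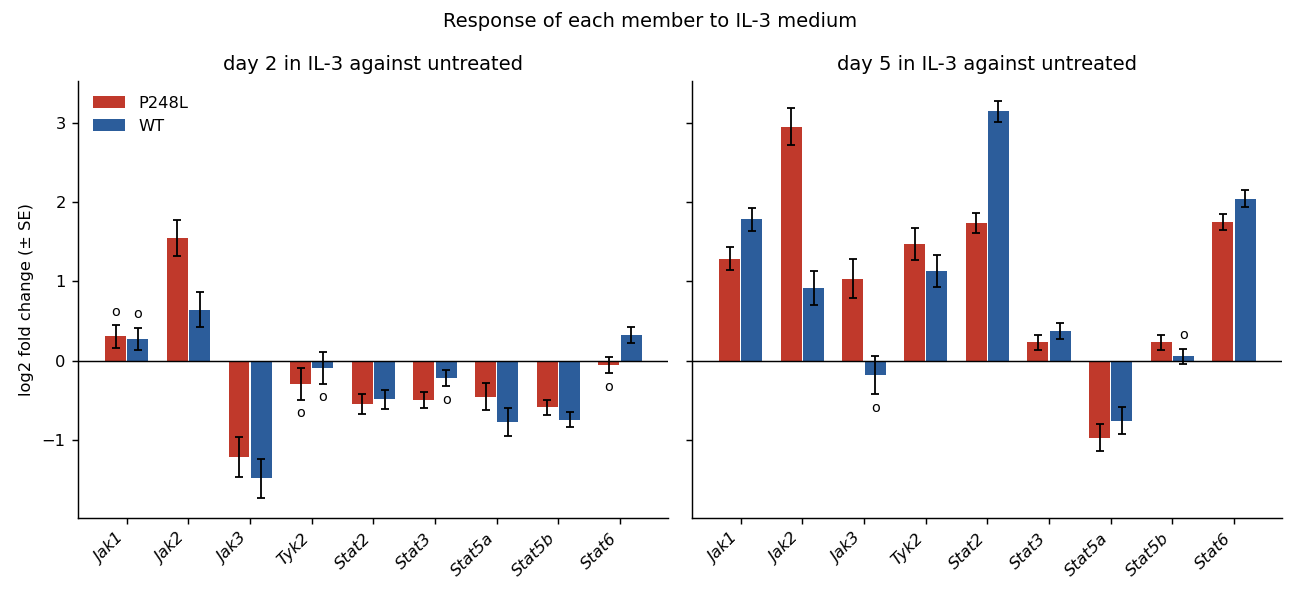
Log2 fold change (bars) with its SE from edgeR for each gene after 2 days (left) and 5 days (right) in IL-3 against untreated cells of the same line, P248L in red and WT in blue. An open circle marks a change that did not pass an adjusted p of 0.05. At day 5 the tallest bars are Jak2 in P248L cells and Stat2 in WT cells.

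Jak2, the kinase bound by βc, showed the largest difference between the lines among the kinases. P248L libraries 1 to 3 gave 28.4, 47.9 and 54.8 CPM before IL-3, 89.2, 118 and 176 CPM after 2 days and 344, 344 and 322 CPM after 5 days. WT libraries gave 82.3, 73.8 and 91.3 CPM before IL-3, 128, 139 and 119.5 CPM after 2 days and 146, 161 and 159 CPM after 5 days. The P248L line thus had less Jak2 than WT cells before IL-3, overlapped with WT cells at day 2 and had more in every library at day 5. The day 2 response of Jak2 was 1.55 ± 0.22 (adjusted p = 3.6e-05) on the log2 scale in P248L cells and 0.64 ± 0.22 (adjusted p = 0.023) in WT cells. The day 5 response was 2.95 ± 0.23 (adjusted p = 3.8e-09) in P248L cells, a fold change of 7.72, and 0.91 ± 0.22 (adjusted p = 0.0011) in WT cells, a fold change of 1.88. The difference of the day 5 responses, P248L minus WT, was 2.03 ± 0.31 (adjusted p = 1.0e-04), and that of the day 2 responses was 0.90 ± 0.31 (adjusted p = 0.076). Between the lines, Jak2 differed by -0.92 ± 0.22 (adjusted p = 0.0062) untreated, by -0.02 ± 0.22 (adjusted p = 0.97) at day 2 and by 1.12 ± 0.22 (adjusted p = 4.1e-04) at day 5, P248L over WT. The WT day 2 call was lost without WT untreated library 1 (adjusted p = 0.054), WT untreated library 2 (0.075) or WT day 2 library 2 (0.067). With no scaling beyond library size neither WT response of Jak2 passed, the day 5 value being 0.47 (adjusted p = 0.058 by edgeR). The day 2 difference of responses passed without P248L untreated library 3 (1.10, adjusted p = 0.022) or P248L day 2 library 1 (1.12, adjusted p = 0.014).

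Jak1 pairs with other JAKs at receptors of interferons and of the IL-6 and common gamma chain families. By transcript length it had the highest group mean of the members in all 6 groups. At P248L day 5 its libraries (76.9 to 81.4 CPM per kilobase) overlapped with those of Stat6 (67.7 to 83.9 CPM per kilobase). The Jak1 transcript level in P248L libraries 1 to 3 was 123, 169 and 185 CPM before IL-3, 166, 199 and 223 CPM after 2 days and 399, 384 and 377 CPM after 5 days. In WT libraries it was 200.3, 178 and 204 CPM before IL-3, 233, 256 and 216 CPM after 2 days and 640.1, 694 and 673 CPM after 5 days. The gene changed little at day 2 and was high at day 5, more so in WT cells, with no overlap between the lines at that time. The day 2 changes, 0.30 ± 0.14 (adjusted p = 0.10) in P248L and 0.27 ± 0.14 (adjusted p = 0.13) in WT cells, did not pass. At day 5 Jak1 rose by 1.28 ± 0.14 in P248L cells (adjusted p = 3.5e-07) and by 1.78 ± 0.15 in WT cells (adjusted p = 4.5e-09), and the P248L level was below the WT level (log2 fold change -0.79 ± 0.14, adjusted p = 1.9e-04). The difference of the day 5 responses, -0.50 ± 0.20 (adjusted p = 0.075), did not pass, and did without P248L untreated library 1 (-0.65, adjusted p = 0.0068) or P248L day 2 library 1 (-0.53, adjusted p = 0.039). The P248L day 2 change passed without P248L untreated library 3 (0.44, adjusted p = 0.023) or P248L day 2 library 1 (0.43, adjusted p = 0.022), the WT day 2 change without P248L untreated library 1 (0.27, adjusted p = 0.048), and the difference between untreated lines, -0.29 ± 0.14 (adjusted p = 0.15), without P248L untreated library 3 (-0.40, adjusted p = 0.044).

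Tyk2, the kinase of the type I interferon and IL-12 receptors, was also a late riser. P248L libraries held 27.4, 43.2 and 46.1 CPM before IL-3, 40.5, 34.2 and 20.2 CPM after 2 days and 112, 107 and 104 CPM after 5 days. WT libraries held 58.7, 56.8 and 61.7 CPM before IL-3, 60.1, 54.3 and 51.9 CPM after 2 days and 133, 130.4 and 123 CPM after 5 days. P248L libraries were below WT libraries at each time without overlap. Tyk2 rose at day 5 by 1.47 ± 0.20 (adjusted p = 4.3e-06) in P248L and by 1.13 ± 0.20 (adjusted p = 6.6e-05) in WT cells, and no difference of responses passed, with a day 5 value of 0.34 ± 0.28 (adjusted p = 0.40). Against WT cells it was lower at day 2 (log2 fold change -0.80 ± 0.20, adjusted p = 0.0046) and untreated (log2 fold change -0.60 ± 0.20, adjusted p = 0.039), and the day 5 value, -0.26 ± 0.20 (adjusted p = 0.31), did not pass. The untreated call was lost in 11 of the 18 fits that left out 1 library, with adjusted p up to 0.17; it held without WT day 2 library 3, WT day 5 library 3, P248L untreated library 3, P248L day 2 library 1 or 3, or P248L day 5 library 1 or 3. The day 2 change in P248L cells, -0.29 ± 0.20 (adjusted p = 0.27), passed without P248L untreated library 1 (-0.49, adjusted p = 0.043).

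Jak3, the partner of Jak1 at receptors with the common gamma chain, was low at day 2 and higher again at day 5. P248L libraries 1 to 3 gave 23.98, 35.7 and 33.5 CPM before IL-3, 19.3, 13.6 and 6.76 CPM after 2 days and 72.2, 58.9 and 59.6 CPM after 5 days. WT libraries gave 54.4, 46.5 and 60.7 CPM before IL-3, 22.3, 18.1 and 17.2 CPM after 2 days and 46.9, 47.5 and 47.8 CPM after 5 days. All day 2 libraries lay below all untreated libraries of their line, and at day 5 P248L libraries were above their untreated level while WT libraries overlapped with theirs. At day 2 Jak3 fell by 1.22 ± 0.25 on the log2 scale (adjusted p = 0.0011) in P248L cells and fell by 1.49 ± 0.25 on the log2 scale (adjusted p = 1.1e-04) in WT cells. At day 5 it was higher by 1.03 ± 0.25 (adjusted p = 0.0011) in P248L cells, and the WT change was -0.18 ± 0.24 (adjusted p = 0.51). The difference of the day 5 responses was 1.22 ± 0.35 (adjusted p = 0.014). Between the lines, Jak3 was lower in P248L than in WT cells before IL-3 (log2 fold change -0.79 ± 0.24, adjusted p = 0.028), a call lost without WT untreated library 1 (adjusted p = 0.082), WT untreated library 3 (0.12) or P248L untreated library 1 (0.11). The differences at day 2, -0.52 ± 0.25 (adjusted p = 0.12), and day 5, 0.43 ± 0.24 (adjusted p = 0.17), did not pass; the first passed without P248L day 2 library 1 (-0.88, adjusted p = 0.0092) and the second without P248L day 2 library 3 (0.43, adjusted p = 0.041).

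Per kilobase of transcript the JAK pool had a different make-up in the lines by day 5. Jak2 made up 36.4 ± 0.800% of the summed CPM per kilobase of the 4 JAKs at P248L day 5 and 15.0 ± 0.380% at WT day 5 (SD, n = 3). Before IL-3 the Jak2 share was 15.1 ± 1.56% in P248L and 20.1 ± 0.554% in WT cells, and at day 2 it was 33.1 ± 6.73% in P248L and 28.5 ± 0.491% in WT cells. Jak1 held the largest share in every group, 42.9 ± 0.447% at P248L day 5 and 66.3 ± 0.539% at WT day 5, and the libraries of the lines did not overlap for either gene at day 5. The Jak3 share was 8.59 ± 0.733% at P248L day 5, against 13.7 ± 0.996% in P248L untreated cells, and 5.73 ± 0.158% at WT day 5, against 16.4 ± 0.836% in WT untreated cells. The mean Tyk2 share lay between 9.09 and 15.0% in the 6 groups, the lowest being 9.09 ± 4.05% at P248L day 2, where the libraries held 12.9, 9.49 and 4.86%.

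**Figure D3:**
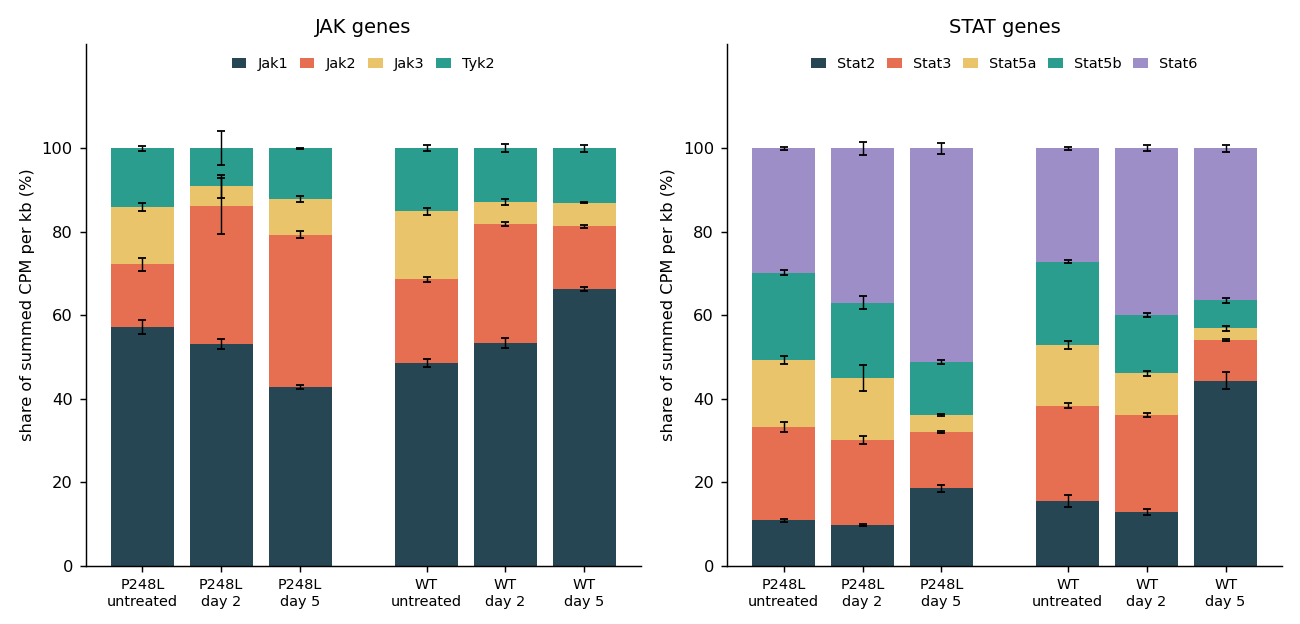
Share of each gene in the summed CPM per kilobase of transcript of the 4 JAKs (left) and the 5 STATs (right), as the mean of 3 libraries with its SD at the top of each segment, for P248L and then WT cells untreated, at day 2 and at day 5. At day 5 Jak2 takes 36.4% of the JAK sum in P248L and 15.0% in WT cells, and Stat2 takes 18.6% of the STAT sum in P248L and 44.4% in WT cells.

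Stat5a and Stat5b, the STATs most directly tied to IL-3, took different courses. In the main fit Stat5a fell and stayed low, and Stat5b fell at day 2 only. In P248L libraries Stat5a read 47.6, 48.3 and 42.7 CPM before IL-3, 42.7, 34.1 and 23.97 CPM after 2 days and 24.9, 23.6 and 22.2 CPM after 5 days. In WT libraries Stat5a read 44.8, 47.8 and 45.4 CPM before IL-3, 28.0, 25.1 and 27.5 CPM after 2 days and 32.6, 27.1 and 21.8 CPM after 5 days. Every day 5 library was below every untreated library of its line. In P248L libraries Stat5b read 78.3, 85.9 and 76.7 CPM before IL-3, 54.6, 51.3 and 54.3 CPM after 2 days and 100.3, 89.8 and 92.9 CPM after 5 days. In WT libraries Stat5b read 84.4, 84.3 and 85.6 CPM before IL-3, 51.3, 49.97 and 50.4 CPM after 2 days and 94.9, 87.1 and 82.0 CPM after 5 days. Every day 2 library was below every untreated and day 5 library of its line. At day 5 Stat5a fell by 0.97 ± 0.17 on the log2 scale (adjusted p = 7.5e-05) in P248L cells and fell by 0.76 ± 0.17 on the log2 scale (adjusted p = 7.2e-04) in WT cells. At day 2 Stat5a fell by 0.46 ± 0.17 on the log2 scale (adjusted p = 0.042) in P248L cells and fell by 0.77 ± 0.17 on the log2 scale (adjusted p = 0.0014) in WT cells. Stat5b fell by 0.59 ± 0.10 on the log2 scale (adjusted p = 1.3e-04) at P248L day 2 and fell by 0.74 ± 0.10 on the log2 scale (adjusted p = 6.3e-06) at WT day 2. At day 5 Stat5b was 0.23 ± 0.10 (adjusted p = 0.038) above untreated in P248L cells and 0.05 ± 0.10 (adjusted p = 0.62) in WT cells. Neither gene differed past the threshold between the lines at any time, the estimates lying between -0.21 ± 0.17 (Stat5a, day 5) and 0.33 ± 0.17 (Stat5a, day 2). The P248L day 2 call of Stat5a was lost in 14 of 18 fits leaving out 1 library (log2 fold changes of -0.45 to -0.26, adjusted p up to 0.18), and held without WT day 5 library 1 or 3, P248L untreated library 3 or P248L day 2 library 1. The P248L day 5 call of Stat5b was also lost in 14 of 18 (log2 fold changes of 0.15 to 0.24, adjusted p up to 0.22), and held without WT day 5 library 1 or 3, P248L day 2 library 3 or P248L day 5 library 2. The change of Stat5a from day 2 to day 5 in P248L cells, -0.52 ± 0.17 (adjusted p = 0.013), was lost without P248L day 2 library 1 (-0.37, adjusted p = 0.058), and its day 2 difference between the lines passed without P248L day 2 library 3 (0.52, adjusted p = 0.012). With no scaling beyond library size the WT day 5 value of Stat5b was -0.38 and passed as a fall. DESeq2's Wald test called Stat5b higher at WT day 5, so this call depends on the method.

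Within the pair the balance moved to Stat5b. Per kilobase, Stat5b made up 74.9 ± 0.895% of the pair at P248L day 5, against 56.5 ± 1.22% in P248L untreated cells, and 70.9 ± 2.65% at WT day 5, against 57.9 ± 0.929% in WT untreated cells (SD, n = 3), and day 5 libraries did not overlap with untreated ones in either line. At day 2 it was 54.8 ± 7.20% in P248L and 58.4 ± 1.13% in WT cells. The mean over all 18 libraries was 62.2% by transcript length and 69.0% by coding length, so the size of this share moves with the length used. Since reads of the copies can be shared, the size of the shift is uncertain.

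Stat3, the main STAT of IL-6 and G-CSF, moved by less than the other genes that were higher at day 5 in both lines. P248L libraries gave 92.5, 103 and 104 CPM before IL-3, 73.3, 74.4 and 64.3 CPM after 2 days and 127, 111 and 112 CPM after 5 days. WT libraries gave 117, 109.8 and 113 CPM before IL-3, 101, 97.0 and 92.7 CPM after 2 days and 147, 151 and 142 CPM after 5 days. Every P248L library was below every WT library of the same time, but the untreated difference did not pass (log2 fold change -0.18 ± 0.10, adjusted p = 0.19). At day 2 Stat3 fell by 0.49 ± 0.10 on the log2 scale (adjusted p = 8.9e-04) in P248L cells, and the WT change was -0.23 ± 0.10 (adjusted p = 0.079). At day 5 it rose by 0.23 ± 0.10 (adjusted p = 0.0495) in P248L cells and by 0.37 ± 0.10 (adjusted p = 0.0027) in WT cells. The P248L call was at the threshold, was lost in 17 of 18 fits leaving out 1 library (0.16 to 0.26, adjusted p up to 0.21) and held without P248L day 2 library 3. P248L cells had less Stat3 than WT cells at day 2 (log2 fold change -0.45 ± 0.10, adjusted p = 0.0018) and at day 5 (log2 fold change -0.33 ± 0.10, adjusted p = 0.012), and the day 5 call was lost without P248L day 5 library 2 (-0.29, adjusted p = 0.055) or library 3 (-0.30, adjusted p = 0.052). The WT day 2 change passed without P248L day 2 library 3 (-0.22, adjusted p = 0.038). With no scaling beyond library size the day 5 values were -0.0031 in P248L and -0.065 in WT cells, so the direction of Stat3 at day 5 turns with the scaling.

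Stat6, the STAT of IL-4 and IL-13, rose in both lines by day 5 and changed little before. P248L libraries held 82.5, 85.4 and 81.5 CPM before IL-3, 84.5, 77.9 and 77.1 CPM after 2 days and 317, 256 and 265 CPM after 5 days. WT libraries held 82.6, 80.7 and 86.9 CPM before IL-3, 111, 103 and 98.5 CPM after 2 days and 346, 359 and 326 CPM after 5 days. The libraries of the lines overlapped before IL-3, and every day 5 library was above every other library of its line. At day 5 Stat6 rose by 1.75 ± 0.11 (adjusted p = 1.1e-10) in P248L and by 2.04 ± 0.11 (adjusted p = 9.9e-12) in WT cells, fold changes of 3.36 in P248L and 4.12 in WT cells. At day 2 the P248L change was -0.06 ± 0.10 (adjusted p = 0.69), and Stat6 rose in WT cells by 0.32 ± 0.10 (adjusted p = 0.018), a call lost without WT untreated library 1 (adjusted p = 0.053), WT untreated library 2 (0.057) or WT day 2 library 1 (0.070). P248L cells held less than WT cells at day 2 (log2 fold change -0.38 ± 0.10, adjusted p = 0.0077) and at day 5 (log2 fold change -0.30 ± 0.10, adjusted p = 0.024). The day 2 call between lines was lost without WT day 2 library 1 (-0.32, adjusted p = 0.057), and the day 5 call without WT day 5 library 1 (-0.30, adjusted p = 0.062) or 2 (-0.27, adjusted p = 0.087) or P248L day 5 library 2 (-0.24, adjusted p = 0.12) or 3 (-0.26, adjusted p = 0.094). Per kilobase Stat6 made up 51.2 ± 1.35% of the 5 STATs at P248L day 5 and 36.4 ± 0.806% at WT day 5.

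Stat2, the factor that joins Irf9 in the interferon-activated complex ISGF3, had the widest range of the 9 genes, 20.1-fold between its highest and lowest group means. P248L libraries 1 to 3 gave 33.8, 36.4 and 36.3 CPM before IL-3, 25.6, 24.9 and 22.4 CPM after 2 days and 129, 117 and 108 CPM after 5 days. WT libraries gave 56.8, 48.0 and 61.1 CPM before IL-3, 44.0, 36.4 and 37.5 CPM after 2 days and 459, 545 and 463 CPM after 5 days. It fell at day 2 in both lines and was far above all other libraries at WT day 5, with P248L day 5 libraries between. The day 2 changes were -0.54 ± 0.12 (adjusted p = 0.0022) in P248L and -0.49 ± 0.12 (adjusted p = 0.0034) in WT cells. The day 5 rise was 1.73 ± 0.13 (adjusted p = 1.1e-09) in P248L cells, a fold change of 3.32, and 3.15 ± 0.13 (adjusted p = 4.6e-13) in WT cells, a fold change of 8.85, and the difference of these responses was -1.41 ± 0.17 (adjusted p = 1.1e-05). P248L cells had less Stat2 than WT cells untreated (log2 fold change -0.64 ± 0.12, adjusted p = 0.0011), at day 2 (log2 fold change -0.69 ± 0.12, adjusted p = 3.0e-04) and at day 5 (log2 fold change -2.05 ± 0.13, adjusted p = 4.4e-10). Per kilobase Stat2 made up 18.6 ± 0.845% of the 5 STATs at P248L day 5 and 44.4 ± 2.03% at WT day 5. No library left out in turn changed a call of Stat2.

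Genes bound by ISGF3 typically carry the interferon-stimulated response element, whose core was searched here as TTTC and TTTC with any 2 bases between, on either strand. The 250 bases before the start site of Stat2 and of Ifit1 and Isg15, textbook ISGF3 targets that rose at WT day 5, are shown to compare this element between them (RefSeq, GRCm38.p6, given 5′ to 3′ on the strand of the gene, with matches in capitals). Stat2 is read at chr10:128270248-128270497 on the plus strand, Ifit1 at chr19:34640639-34640888 on the plus strand and Isg15 at chr4:156200819-156201068 on the minus strand.
Stat2: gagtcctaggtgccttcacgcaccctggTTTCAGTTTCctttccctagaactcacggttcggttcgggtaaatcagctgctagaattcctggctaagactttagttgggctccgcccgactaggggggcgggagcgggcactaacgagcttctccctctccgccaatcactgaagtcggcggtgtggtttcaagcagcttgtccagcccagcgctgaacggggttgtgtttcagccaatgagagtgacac
Ifit1: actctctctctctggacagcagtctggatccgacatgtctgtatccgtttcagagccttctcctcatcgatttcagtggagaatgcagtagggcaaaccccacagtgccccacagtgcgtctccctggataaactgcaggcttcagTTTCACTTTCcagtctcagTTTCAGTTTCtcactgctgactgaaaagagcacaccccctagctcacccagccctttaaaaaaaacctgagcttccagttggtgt
Isg15: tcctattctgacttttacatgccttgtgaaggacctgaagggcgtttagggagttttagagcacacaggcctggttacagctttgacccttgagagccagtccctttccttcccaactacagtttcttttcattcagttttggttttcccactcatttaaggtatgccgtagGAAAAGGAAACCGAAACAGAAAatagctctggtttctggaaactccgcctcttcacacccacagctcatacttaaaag
The Stat2 window held 1 match, TTTCAGTTTC, starting 222 bases before the start site. The same letters stood in Ifit1 85 bases before its start, next to TTTCACTTTC at 104, and Isg15 held 3 overlapping matches on the other strand. Of the 9 members, all with at least 1 window (11 windows in all), only Stat2 held a match in this search, and among the 12 ISGF3 targets listed, 5 of the 9 with a window did. Of 32851 windows of the genome-wide table (300 bases, from 250 before to 50 after a start), 3.44% held this core. The palindrome TTCNNNGAA, the core of STAT5-type sites, was in 0 member windows and in 8.30% of all windows. A match is a description of letters, and matches outside these windows were not searched.

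The 12 listed ISGF3 targets, antiviral genes and regulators of the interferon response, were, like Stat2, lower in P248L cells at day 5. At day 5 all 12 were lower in P248L than in WT cells, with a median log2 difference of -5.89, where 22.7% of all genes were called lower. Ifit1, which binds viral RNA, read 1.99, 1.84 and 1.63 CPM in P248L and 216, 269 and 265 CPM in WT day 5 libraries (log2 fold change -7.09 ± 0.20, adjusted p = 7.3e-14). Oas2, which makes the activator of the antiviral nuclease RNase L, read 11.0, 8.90 and 8.41 CPM in P248L and 223, 264 and 280.2 CPM in WT day 5 libraries (log2 fold change -4.76 ± 0.19, adjusted p = 2.7e-12). No library of one line overlapped with the other line for these genes at day 5, as for 32.5% of all genes in this direction. Against untreated cells 12 of 12 rose at WT day 5 (median log2 fold change 8.96), where 35.7% of all genes rose. At P248L day 5, 10 of 12 rose and 1 fell (median 2.64), where 34.8% of all genes rose and 36.2% fell. The gene that fell was Ifit2, named after its values were seen, at 7.13, 8.28 and 6.65 CPM at P248L day 5, against 10.9, 15.9 and 20.1 CPM untreated, while WT day 5 libraries held 525, 668 and 654 CPM. In the difference of day 5 responses 10 of 12 were lower in P248L cells, where 12.1% of all genes were. Irf9, the DNA-binding partner of Stat2, read 44.2, 37.1 and 42.3 CPM at P248L day 5 and 114, 121 and 110.3 CPM at WT day 5, and against untreated cells it rose by 1.03 ± 0.12 (adjusted p = 4.9e-07) in P248L and by 2.66 ± 0.12 (adjusted p = 1.8e-12) in WT cells, with a difference of responses of -1.64 ± 0.17 (adjusted p = 1.4e-06). The list and its pattern were known from earlier results of these data, and the counts are descriptions. Summed monocyte and macrophage markers were also lower at P248L day 5 (14135 to 19480.1 CPM) than at WT day 5 (32788 to 41026 CPM), summed neutrophil markers were higher (26027 to 38485 against 7733 to 13236 CPM), and their part in the result was not tested.

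**Figure D4:**
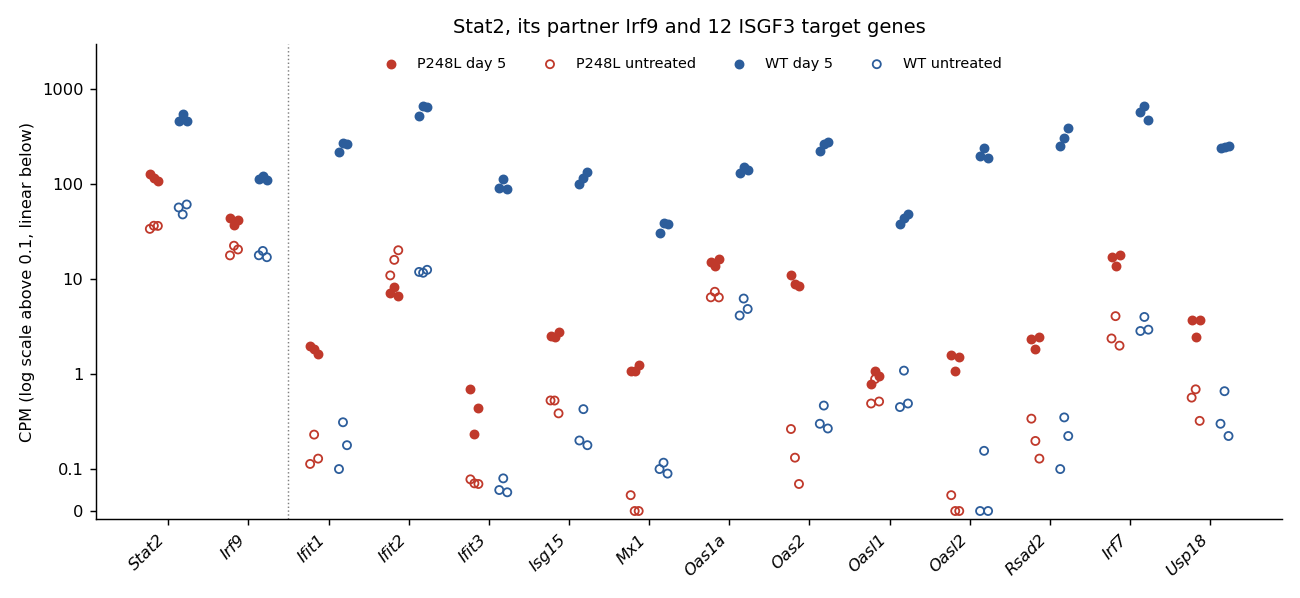
Level of Stat2, Irf9 and the 12 listed ISGF3 target genes in each P248L (red) and WT (blue) library at day 5 (filled) and untreated (open), in CPM on an axis that is logarithmic above 0.1 and linear below. All 3 WT day 5 libraries lie above all 3 P248L day 5 libraries for each gene, and for Ifit2 the P248L day 5 libraries lie below the P248L untreated ones.

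Set side by side, the lines differed at each time in a different subset of the members. Before IL-3, 4 of 9 were lower in P248L than in WT cells (Jak2, Jak3, Tyk2 and Stat2), with 21.5% of all genes called (10.3% up, 11.3% down). At day 2, 4 were lower (Tyk2, Stat2, Stat3 and Stat6), with 35.6% called (15.3% up, 20.3% down). At day 5, 4 were lower (Jak1, Stat2, Stat3 and Stat6) and Jak2 was higher, with 45.4% called (22.7% up, 22.7% down). Stat2 was in the set at every time, and Stat5a and Stat5b at none. Without P248L untreated library 1 and P248L day 2 library 3, 7 members and 5081 genes differed at day 2, against 4 members and 4253 genes with all libraries, with Jak1 and Jak2 also lower and Stat5a higher in P248L cells. In the differences of responses, 0 of 9 passed at day 2 by edgeR, where 9.43% of all genes did (2.99% up, 6.44% down), with 2 at an unadjusted p under 0.05, 1 by DESeq2 and 0 by limma-voom. At day 5, 3 of 9 passed (Jak2 and Jak3 higher, Stat2 lower in P248L cells), with 26.7% of all genes called (14.6% up, 12.1% down). Comparisons between lines and responses use the same libraries and are not independent of each other.

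**Figure D5:**
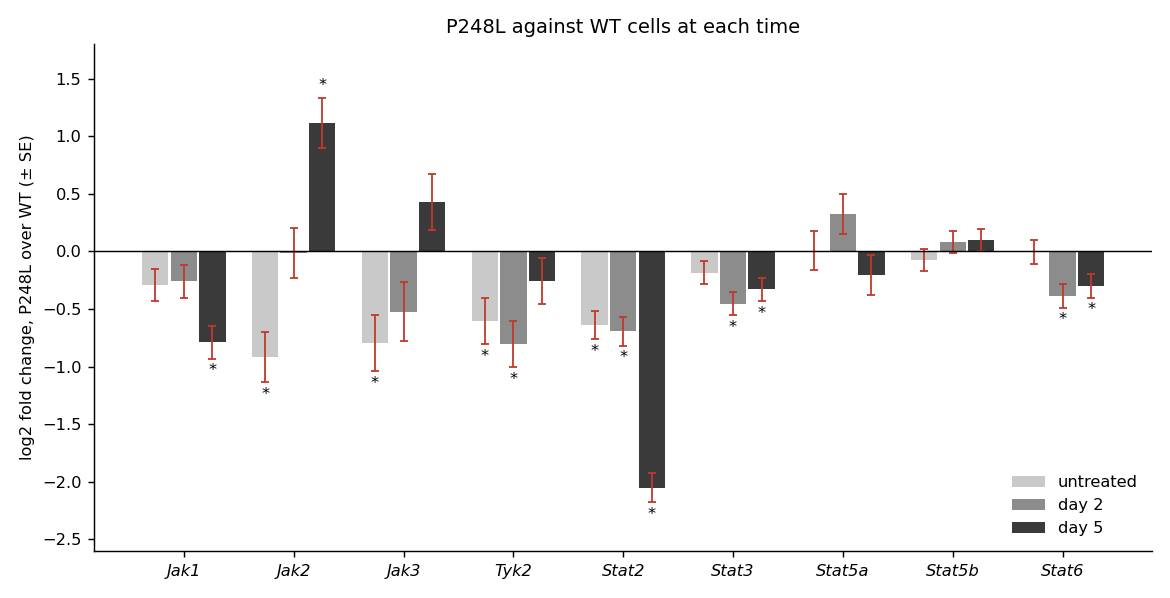
Log2 fold change of P248L over WT cells (bars, with the SE from edgeR) for each gene in untreated cells and at day 2 and day 5, with an asterisk where the adjusted p was under 0.05. Jak2 is below 0 untreated and above 0 at day 5, and Stat2 is below 0 at all times, most at day 5.

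The rest of the pathway was described from lists chosen with earlier results known. Of 24 tested cytokine receptor genes (30 listed), 20 rose and 3 fell at P248L day 5 (median log2 fold change 1.64), where 71.0% of all genes were called (34.8% up). At WT day 5, 17 rose and 3 fell (median 1.75), where 73.0% of all genes were called (35.7% up). The medians over all genes were -0.02 at P248L day 5 and -0.05 at WT day 5. Csf2ra, the GM-CSF-binding subunit, rose to 177 ± 19.3 CPM at P248L day 5, against 6.28 ± 0.731 CPM untreated, and to 173 ± 19.8 CPM at WT day 5, against 8.79 ± 1.15 CPM untreated. Il7r, the IL-7 receptor, which signals through Jak1 and Jak3, had 71.6 ± 1.79 CPM at P248L day 5 and 0 reads in P248L untreated libraries, at least 1730.3-fold higher by a floor of 3 reads over the group, and it reached 247 ± 44.0 CPM at WT day 5. The βc gene Csf2rb had a P248L change of 0.25 ± 0.15 (adjusted p = 0.20) at day 2 and reached 271 ± 50.7 CPM at WT day 2, against 83.4 ± 7.68 CPM untreated (adjusted p = 9.8e-08), with a difference of responses of -1.45 ± 0.22 (adjusted p = 2.4e-04). By day 5 it had risen by 1.89 ± 0.16 (adjusted p = 7.5e-09) in P248L and 2.39 ± 0.16 (adjusted p = 2.9e-10) in WT cells. Csf2rb2, which encodes βIL-3 and is a close copy of Csf2rb, so that values of both are uncertain, differed at day 5 by -1.11 ± 0.13 (adjusted p = 2.8e-06) on the log2 scale, P248L over WT. Il3ra stood at 0.441 to 11.2 CPM over all libraries. Which exons were removed, and whether the introduced chains were mouse or human, is not stated in the labels, so these genes check no genotype.

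Brakes on the pathway were mostly higher at day 5. Of 19 such genes, 12 rose and 1 fell at P248L day 5 (median 0.77), and 10 rose and 3 fell at WT day 5 (median 0.65). Of all genes 34.8% rose at P248L day 5 (median -0.02) and 35.7% at WT day 5 (median -0.05). Cish, a STAT5-induced inhibitor, reached 246 ± 11.3 CPM at P248L day 5, against 7.32 ± 2.51 CPM untreated, and 177 ± 10.9 CPM at WT day 5, against 6.73 ± 0.478 CPM untreated. It was already high at day 2, with 119.9 ± 28.8 CPM in P248L and 155 ± 14.6 CPM in WT cells. Ptpn1, a phosphatase that acts on JAKs, rose at day 5 by 2.06 ± 0.12 (adjusted p = 8.4e-11) in P248L and by 1.91 ± 0.12 (adjusted p = 1.4e-10) in WT cells. Usp18, which blocks the type I interferon receptor, read 3.27 ± 0.708 CPM at P248L day 5 and 247 ± 5.75 CPM at WT day 5. In the 12 partners and adaptors, 8 rose and 2 fell at day 5 in each line, beside the same shares of all genes. Ncoa1, a coactivator, rose by 1.88 ± 0.14 (adjusted p = 1.9e-09) in P248L and by 1.49 ± 0.14 (adjusted p = 2.4e-08) in WT cells, and the adaptor Gab2 by 1.57 ± 0.18 (adjusted p = 3.4e-07) in P248L and by 1.33 ± 0.17 (adjusted p = 2.0e-06) in WT cells. Parp14, a cofactor of Stat6, rose by 1.76 ± 0.25 (adjusted p = 6.5e-06) in P248L and 3.45 ± 0.27 (adjusted p = 2.0e-09) in WT cells.

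Most STAT5 target genes on the list rose in both lines. Of 15 STAT5 targets, 12 rose and 1 fell at P248L day 5 (median 3.05), and 14 rose at WT day 5 (median 2.98). Pim1, a survival kinase, stood at 551 ± 40.1 CPM at P248L day 5, against 49.6 ± 5.47 CPM untreated, and at 285 ± 26.1 CPM at WT day 5, against 32.7 ± 4.85 CPM untreated. At day 2, 11 of 15 rose in each line, with medians of 1.07 in P248L and 2.10 in WT cells. Of all genes 18.5% rose at P248L day 2 and 22.0% at WT day 2, and 34.8% rose at P248L day 5 and 35.7% at WT day 5. Of 8 tested STAT3 targets, 8 rose at P248L day 5 and 7 at WT day 5, Il1rn, the IL-1 receptor antagonist, reaching 225 ± 21.9 CPM at P248L day 5 and 766 ± 167 CPM at WT day 5. Pim1 and Socs3 are on both lists. Cish, Socs3 and other brakes are also among the STAT5 targets, and Usp18 is among the ISGF3 targets, so the counts of these lists share genes. Of 6 tested STAT6 targets (11 listed), 3 rose at P248L day 5 and 5 at WT day 5, and the P248L count is near the share of all genes. Mrc1, the mannose receptor of macrophages, read 38.5 ± 7.91 CPM at P248L day 5 and 485 ± 65.9 CPM at WT day 5 (log2 fold change -3.65 ± 0.28, adjusted p = 1.3e-08), while Pparg, a nuclear receptor of lipid metabolism, read 82.0 ± 5.57 CPM at P248L day 5 and 79.7 ± 12.1 CPM at WT day 5. Summed neutrophil and macrophage markers were also high at day 5, and their part in these counts was not tested.

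Across the 18 libraries, Jak1 and Stat6 (r = 0.94), Jak1 and Stat2 (0.93) and Stat2 and Stat6 (0.92) had the most alike patterns among the members in log2 CPM, and Jak2 and Stat5a the most opposed (-0.86). These correlations are descriptions over libraries of 6 groups, so they follow differences between groups as well as between replicates. Stat5a and Stat5b had r = 0.11. Of 9944 genes with a mean of at least 1 CPM, those most like a member over the 18 libraries were, for 3 of the kinases, Cog6 and Brox for Jak1 (r = 0.99 for each), Ube2j1 and Picalm for Jak2 (0.97 for each) and Zer1 and Grik5 for Jak3 (0.97 for each). For the STATs they were Rnf114 and Vps39 for Stat2 (0.99 for each), Abhd4 and Sgsh for Stat3 (0.99 and 0.98), G6pc3 and Fam65a for Stat5a (0.96 for each), Phf21a and Ing4 for Stat5b (0.98 and 0.97), and Slc37a2 and Ski for Stat6 (0.99 for each). Picalm, an endocytic adaptor, had 564 ± 38.6 CPM at P248L day 5 and 308 ± 31.8 CPM at WT day 5, against 158 ± 39.1 CPM in P248L and 190.0 ± 16.4 CPM in WT untreated cells. Rnf114, a ubiquitin ligase, had 84.4 ± 9.98 CPM at P248L day 5 and 205 ± 8.18 CPM at WT day 5, against 47.1 ± 3.24 CPM in P248L and 52.8 ± 2.70 CPM in WT untreated cells.

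Genes next to the members did not share one course. Nab2, a corepressor of EGR factors that overlaps the end of Stat6 on the other strand, rose at day 5 by 2.69 ± 0.25 (adjusted p = 2.6e-08) in P248L and 4.06 ± 0.26 (adjusted p = 2.1e-10) in WT cells, and at day 2 it fell to 0.919 ± 0.486 CPM in P248L cells, against 2.23 ± 0.361 CPM untreated (adjusted p = 0.0038), and rose by 3.10 ± 0.26 (adjusted p = 3.5e-08) in WT cells. Insl6, 8258 bases from Jak2, rose by 2.91 ± 0.30 (adjusted p = 1.3e-07) in P248L and by 3.35 ± 0.30 (adjusted p = 1.8e-08) in WT cells at day 5, from untreated means under 1 CPM. Ghdc, next to Stat5b, rose by 1.82 ± 0.21 (adjusted p = 3.7e-07) in P248L and by 1.97 ± 0.21 (adjusted p = 1.2e-07) in WT cells at day 5, when Stat5a fell. Cdc37, a chaperone partner of kinases next to Tyk2, fell by 0.99 ± 0.17 on the log2 scale (adjusted p = 5.4e-05) in P248L cells and fell by 0.79 ± 0.17 on the log2 scale (adjusted p = 4.5e-04) in WT cells, where Tyk2 rose. Unc13a, a synaptic protein next to Jak3, rose by 3.34 ± 0.32 (adjusted p = 4.2e-08) in P248L and by 2.33 ± 0.37 (adjusted p = 2.0e-05) in WT cells, and the lncRNA gene 1700012D01Rik, next to Stat6, had 0.543 ± 0.183 CPM at P248L day 5 and 0.208 ± 0.0555 CPM at WT day 5, and neither day 5 change passed.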

How the data were processed

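RNA-seq libraries of P248L and WT cells at 3 times (3 libraries each) were analysed from the deposited count files, which hold reads per gene symbol, for both strands and for each strand, and the authors' unassigned reads. Per the submitters' processing notes the reads were aligned with STAR to mm10; neither versions nor the annotation and filters behind the counts are stated. The counts of the strand that held nearly all reads were used as deposited (reads on the other strand came to 1.17 to 2.54% of a library, and reads assigned to no gene, 27.9 to 38.1% of all, were left out). Reads that map to several places are listed apart by the authors' files and enter no gene. Counting error limits genes with few reads, and no molecular identifiers are described.

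edgeR 4.0.16 (R 4.3.3) was run with filterByExpr (minimum count 10), TMM and the robust quasi-likelihood F test, with 1 mean for each of the 6 groups over all 18 libraries, so that all share 1 estimate of the spread (common biological coefficient of variation 0.17). P-values were adjusted by Benjamini-Hochberg over 11942 genes in each of 11 comparisons, SE is the log2 fold change divided by the square root of F, and log2 fold changes of the difference of responses are P248L minus WT. The code was tested on simulated data. Levels per kilobase use the longest protein-coding transcript of GENCODE M21 (GRCm38), and promoters come from RefSeq (GRCm38.p6). Alternatives were other scalings and filters, both-strand counts, DESeq2 1.42.0, limma-voom (limma 3.58.1), glmTreat, fits of only the libraries compared, a replicate block and leaving out libraries. Figures were drawn with matplotlib 3.10.9.

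The members and lists were chosen with earlier results of these data known. Other genes named are the 2 of smallest adjusted p at day 5 in each line for each list, the receptor genes, Irf9, the 2 genes most like each member, and neighbours; Isg15, Ifit2 and Socs3 are named outside this rule, with their values known. The replicate numbers of the labels, whose meaning is not stated, were not used as pairs in the main fit, and a replicate block was fitted only as an alternative. At P248L day 2 against untreated, deviations of same-numbered libraries had correlations of 0.46, 0.17 and 0.35. Day 2 library 2 and untreated library 3 also gave 0.17. The genes most like Tyk2 and 1 cytokine receptor gene are not reported here.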

Additional observations from a re-analysis of the deposited data

Results flagged for a closer look

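The day 5 responses of 3 members differed between the lines by edgeR's test of the difference itself, as did those of 26.7% of all genes, so the count does not set the members apart. That of Jak2 was larger in P248L than in WT cells by 2.03 on the log2 scale (adjusted p = 1.0e-04), and that of Jak3 by 1.22 (adjusted p = 0.014). That of Stat2 was smaller in P248L than in WT cells, with a difference of -1.41 (adjusted p = 1.1e-05). Jak2 and Jak3 were also lower in P248L than in WT cells before IL-3, by log2 fold changes of -0.92 and -0.79, so part of each difference lies in the untreated libraries. At day 5 itself the lines differed in Jak2 (1.12, adjusted p = 4.1e-04 by edgeR) and not past the threshold in Jak3 (0.43, adjusted p = 0.17). The untreated call of Jak3 was lost in 3 of 18 fits leaving out 1 library. That of Jak2 was lost in a fit of only the libraries compared (adjusted p = 0.073).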

How the results depend on the processing

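For single members, 1202 of 1287 values under the alternatives kept their side of the threshold and, where called, their direction. A further 25 newly passed and 57 no longer passed. The remaining 3 changed sign and passed either in the main fit or in the alternative, but not in both. Of the 1202, 23 that did not pass in either fit changed sign. Leaving out each library in turn kept 1696 of 1782, with 13 newly passing and 73 no longer passing, and of the 1696, 36 that did not pass in either fit changed sign. Those 3 changed sign with no scaling beyond library size. Stat3 at day 5 against untreated passed in the main fit but not there, with values of -0.0031 in P248L and -0.065 in WT cells. Stat5b at WT day 5 did not pass in the main edgeR fit (0.05, adjusted p = 0.62) and passed there as lower (-0.38). That setting moves the median of all genes, and it moved the share of calls that were upward at WT day 5 to 34.4%, against 48.9% with TMM, at WT day 2 to 36.0% (50.4% with TMM), from day 2 to day 5 in WT cells to 40.5% (50.97%), at P248L day 2 to 34.3% (46.3%; upper-quartile factors 36.2%), in P248L against WT untreated cells to 35.9% (47.6%) and in the difference of day 5 responses to 72.6% (54.7%).

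Fitting only the libraries compared gave 1 member and 1630.0 genes at P248L day 2, 2 members and 1177 genes between untreated lines and 718 genes in the difference of day 2 responses, from a fit with fewer libraries. An adjusted p under 0.01 gave 3165 genes at P248L day 2, 2 members and 1339 genes between untreated lines, 3 members and 4053 genes between lines at day 5, and 576 and 1902 genes in the differences of day 2 and day 5 responses. Requiring a fold change above 1.2 gave 2 members and 1530.0 genes between untreated lines and 3 members and 4311 genes at day 5, where no scaling gave 3 members and 5557 genes. DESeq2's Wald test gave 1 member (Jak2) and 1637 genes in the difference of day 2 responses, and 5 members (Jak1 and Stat6 besides) and 3613 genes in that of day 5. Without P248L untreated library 1 and day 2 library 3, 7 members and 5081 genes differed between lines at day 2. Coding length gave a mean Stat5b share of 69.0%, against 62.2%. The causes were not tested.

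Leaving out 1 library gave 2 to 5 members and 1517 to 4541 genes between untreated lines (highest without P248L untreated library 3), 3 to 6 members and 4574 to 6223 genes between lines at day 5, and 0 to 1 members and 784 to 1905 genes in the difference of day 2 responses. With the replicate block 6 members and 4900.0 genes changed at P248L day 2, against 6 and 4762 without it, and no member's call changed there. In the other comparisons the numbers did not pair the samples, and the block gave Stat3 at P248L day 5 an adjusted p of 0.055 and Tyk2 between untreated lines 0.0504. Jak3 had 92 reads in its lowest library, the fewest of the members.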
